A study of Gallus gallus with 2 samples.

Results

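RNA helicases, splicing proteins and mRNA storage proteins were examined in germinal discs of maturing chicken oocytes, the small region on top of the yolk with the oocyte nucleus. The genes were chosen by symbol: those named on the array with a single symbol starting with DDX or DHX (helicases), HNRNP, SRSF, SF3 or SNRP (splicing proteins), or CPEB, PABP, PUM plus a digit or CELF (proteins that bind stored mRNA). DDX4 and DDX25, which belong to the germ cell genes, and the IGF2BP genes were left out. This gave 95 genes in 10 families, carried by 246 probe sets, out of 13008 named genes on the array. One group was laying hens whose bursa of Fabricius, the organ in which birds form B cells, had been removed by surgery on day 17 to 18 of incubation (Bx), described by the series as IgY-deficient. The other group was control hens. Both groups were sampled at 25 weeks of age from yellow follicles ranked F5 to F7. The labels give neither a breed nor any sham surgery of the controls. Each group was 1 pool of 9 discs from 3 birds on 1 Affymetrix Chicken Genome Array. With 1 array a group there was no replicate, no test was possible, and birds could not be told apart within a pool. The purpose of the arrays, per the series, was a screen for upregulated genes in the IgY-deficient hens.

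A growing oocyte transcribes and splices large amounts of mRNA and keeps much of it untranslated for the first divisions of the embryo. In frog and mouse oocytes, CPEB proteins hold stored mRNAs with short poly(A) tails until maturation, the helicase DDX6 sits with them in repressed particles, and poly(A)-binding proteins protect and activate messages whose tails have grown. DEAD-box (DDX) and DEAH-box (DHX) helicases use ATP to open RNA duplexes or to strip proteins from RNA at nearly every step, from ribosome assembly to splicing and translation.

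A probe set was taken as measured where its signal passed a background floor on both arrays, set for each array (42.6 for control and 36.4 for Bx). The floor is the 95th percentile of probe sets not designed for chicken genes. By that rule 92 of the 95 genes (96.8%) were measured, against 78.2% of all named genes. A gene's signal is that of its brightest probe set, in array units as the authors scaled them. Signals of different probe sets are not compared, because probes differ in how strongly they bind. Genes of the tissue named in the labels were present, with the egg envelope gene ZP2 at 2089 in control discs and 1952 in Bx discs, and the germ cell RNA-binding protein DAZL at 2743 and 3027. Granulosa cell genes were also present. All 16 granulosa markers listed were measured, and 14 of the 16 had the lower signal in Bx discs, with a summed signal of 135728 in control discs and 123564 in Bx discs. The 13 oocyte markers on the array summed to 7597 in control discs and 8359 in Bx discs, and 10 of the 13 were higher in Bx discs. ZP2 and DAZL gave the largest parts of that sum, while others, such as ZP1 (44.8 and 68.2) and GDF9 (59.0 and 81.4), were dim. ZP2 was among the 3 lower. In such bulk samples fewer cells of a type and less RNA per cell cannot be told apart, and the part of these shifts in the values below was not tested. Of the marker lists for other cells, 8 of 13 theca, fibroblast and muscle genes were measured. The summed signal over those measured was 2733 in control discs and 2712 in Bx discs, with COL1A2 the largest part (1340 and 1364). Left out of it were ACTA2 (72.9 and 7.02) and DCN (57.8 and 3.79), above the floor in control discs only. DES (9.85 and 42.1), above it in Bx discs only, was also left out. For 7 of 10 endothelial genes the sum was 727 and 813, and for 3 of 4 erythrocyte genes 292 and 282. The 6 measured of 10 leukocyte and thrombocyte genes summed to 3758 and 2865, with 3 higher and 3 lower. CD74 made up most of that sum (3182 and 2212), and without it the sum was 576 and 653. The immune marker PTPRC was under the floor on both arrays, at 8.62 and 25.7, as were CD4 and ITGB2. CD3E, from the same list, was under the floor in the control (6.25) and above it in Bx discs (72.0).

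The families as a whole had nearly the same signals in the 2 pools. The median log2 ratio of Bx over control was -0.0072 over the 92 measured genes, with an SD between genes of 0.25, beside 0.013 and 0.32 over all 10168 measured genes. In the Bx pool 43 of the 92 had the higher signal and 49 the lower, beside 5328 higher and 4840 lower of all measured genes. Only 3 were at least 1.5-fold higher, where 4.11% of all measured genes were, and 1 was at least 1.5-fold lower, where 3.63% were. Together these 4 are fewer in proportion than the 7.74% of all measured genes past 1.5-fold in either direction. None was past 2-fold, beside 1.06% of all measured genes. A log2 ratio of 0.32 or more in size, a gentler threshold, was reached by 11 of the 92, against 22.3% of all genes, 4 of them higher (12.3% of all genes) and 7 lower (9.94%). The other 81 (88.0%) were closer than that, as were 77.7% of all genes.

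Brightness goes with this difference. All measured genes were put in 4 groups of 2542 by mean signal. Of the 92 genes 44 fell in the brightest group and 25 in the next. Ratios of bright genes spread less on these arrays, and the reason was not tested. In the brightest group the SD of the log2 ratio was 0.13 over the 44 genes and 0.15 over all genes. Going down, it was 0.20 against 0.21, 0.31 against 0.31, and 0.44 against 0.49 in the dimmest group, which held 13 of the genes. The spread of the families was thus close to that of all genes of like brightness. Of the 13 dimmest, 3 were past 1.5-fold, where 22.9% of all genes in that group were. In the next group it was 1 of 10, beside 6.22%. In the brighter groups it was 0 of 25 and 0 of 44, beside 1.49% and 0.354%.

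**Figure D1:**
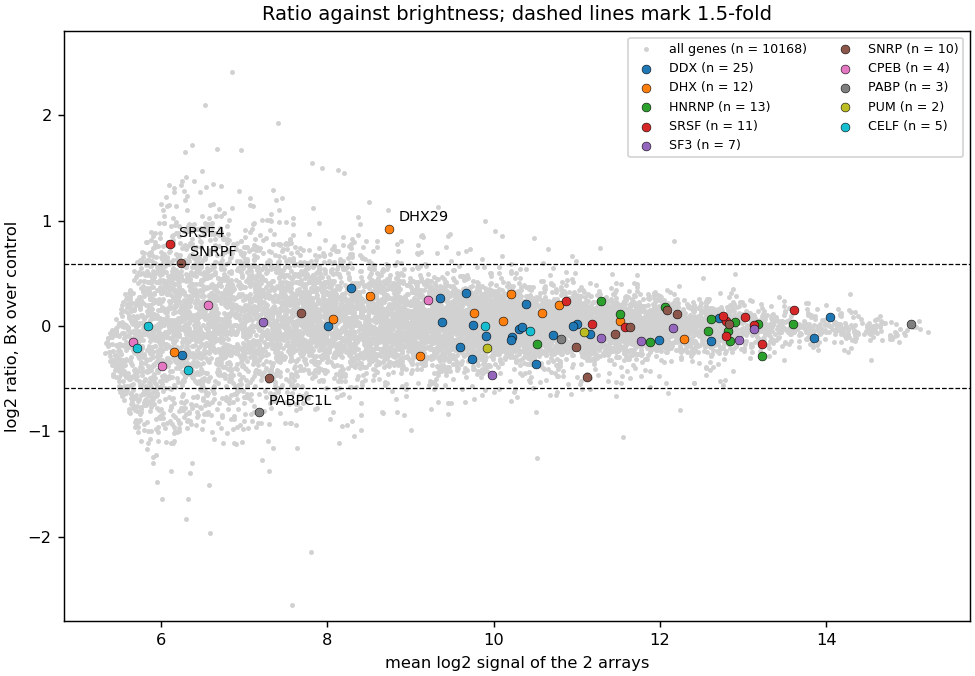
Log2 ratio of Bx over control (vertical axis) against the mean log2 signal of the 2 arrays (horizontal axis) for all 10168 measured genes in grey and the 92 measured family genes in colour. The coloured points follow the funnel of the grey ones, and the 4 named genes lie past the dashed 1.5-fold lines.

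The DDX helicases, with 25 of 27 genes measured, had a median log2 ratio of -0.03 and a range of -0.36 to 0.37. None was past 1.5-fold, beside 7.74% of all measured genes in either direction. DDX10, a helicase of ribosome assembly, was at 1653 in control discs and 1285 in Bx discs, the lowest ratio of the family at -0.36. Its other measured probe set went the opposite way (54.0 and 59.5). DDX11, a DNA helicase that helps hold sister chromatids together, was at 274 and 352, a log2 ratio of 0.37, and 4 of its 5 measured probe sets were higher in Bx discs. DDX20, the Gemin3 subunit of the complex that builds snRNPs, was at 732 and 910, and 2 of its 3 probe sets were higher.

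The helicases best known from translation and mRNA storage did not move together: of 5 measured, 3 were higher and 2 lower in Bx discs. Their median log2 ratio was 0.05, and 1 was past 1.5-fold, beside 7.74% of all measured genes in either direction. DDX6, the helicase of repressed mRNA particles, was at 950 in control discs and 764 in Bx discs on its brightest probe set, 1.24-fold lower. Its other probe set was at 448 on both arrays, so the probe sets did not agree on a difference. DDX3X, which helps ribosomes scan structured leaders, was bright and close between pools, at 16357 and 17331, a log2 ratio of 0.08 on 1 probe set. DDX1, an RNA helicase with a role in tRNA ligation and RNA transport granules, was at 4256 and 3870, and both its probe sets were lower in Bx discs by a mean log2 ratio of -0.08 ± 0.08 (SD, 2 probe sets). An SD between probe sets covers measurement on these arrays only.

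DHX29, which lets the small ribosomal subunit pass through stable structure in mRNA leaders, had the largest ratio of all 92 genes. Its signal was 311 in control discs and 591 in Bx discs, 1.90-fold higher (log2 ratio 0.93). Of all genes in its brightness group 1.02% differed by as much. Its other measured probe set pointed the other way, at 265 in control discs and 200 in Bx discs, and the mean log2 ratio was 0.26 ± 0.94 (SD, 2 probe sets). The 1.5-fold call for DHX29 therefore rested on 1 probe set and ended when probe sets were averaged.

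DHX36 opens G-quadruplexes, four-stranded RNA and DNA structures. All 4 of its measured probe sets were higher in Bx discs, but by unequal amounts. The brightest was at 2889 and 2981 (log2 ratio 0.05) and the next at 1693 and 1747, also 0.05. A dimmer one was at 209 and 399, a log2 ratio of 0.94. The mean over the 4 was 0.31 ± 0.43 (SD).

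**Figure D2:**
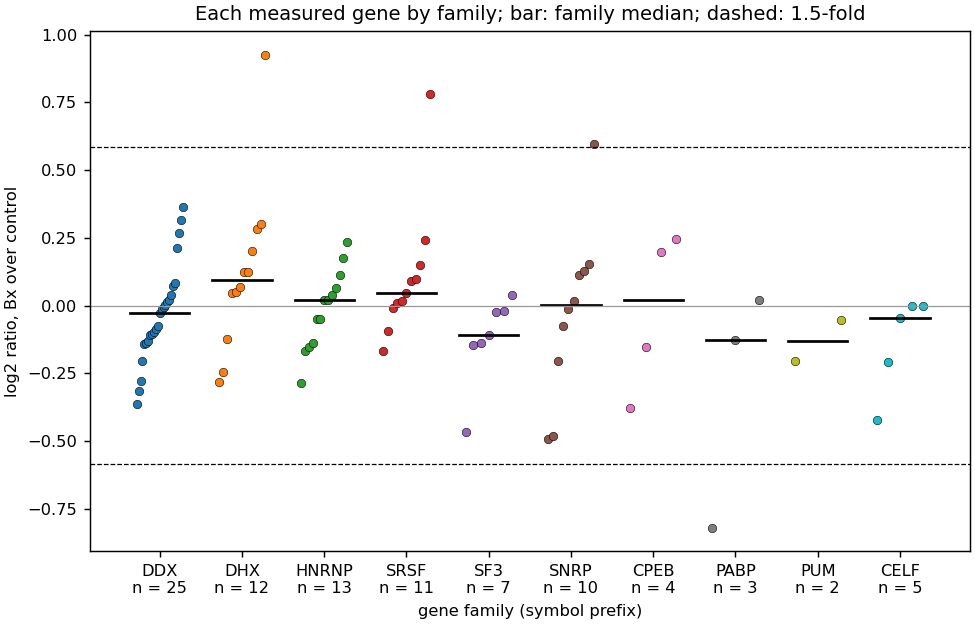
Log2 ratio of Bx over control for each measured gene, by family along the horizontal axis, with the family median as a bar and 1.5-fold as dashed lines. The medians lie between -0.13 (PABP and PUM) and 0.10 (DHX), and DHX29, SRSF4 and SNRPF stand above the upper line while PABPC1L stands below the lower one.

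All 12 DHX genes were measured, 9 of them with the higher signal in Bx discs, beside 5328 of all 10168 measured genes. The family median log2 ratio was 0.10. Under the other scalings of the arrays it stayed above 0, between 0.04 and 0.08. The count of 9 depended on the scaling, as DHX36 moved to -0.0093 after median centring. It also depended on the choice of probe sets. When they were averaged, DHX30 (-0.22), DHX37 (-0.0076) and DHX57 (-0.02) turned lower, while DHX15 moved up to 0.0004. DHX38, the helicase that remodels the spliceosome before the second splicing step, was at 1065 and 1312 (log2 ratio 0.30, 1 probe set). DHX8, which releases spliced mRNA from the spliceosome, was at 331 and 403 (0.28), and 3 of its 4 probe sets were higher. DHX35 was the lowest, at 609 and 501 (-0.28). The antiviral helicase DHX58 (LGP2) was dim, at 77.7 and 65.6 (-0.25), in the range where 59.3% of genes differed by as much. DHX15, which takes spent spliceosomes apart, was at 5201 and 4771 (-0.12), with its 2 probe sets going opposite ways.

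Sorted by role, the helicases of splicing had a median log2 ratio of -0.10 over 9 genes, but a mean of 0.03, and those of ribosome assembly -0.02 over 14. None of these 23 was past 1.5-fold, beside 7.74% of all measured genes in either direction. Among the splicing helicases DDX5 was at 15341 and 14210 (-0.11) and DDX17 at 6570 and 5956 (-0.14). These paralogs also act as transcription cofactors, and both were slightly lower in Bx discs. DDX41 was at 597 and 718 (0.27), with 2 of 3 probe sets higher, and DDX42, a partner of the SF3B complex, at 1245 and 1442 (0.21). Among those of ribosome assembly DDX18 was dim, at 84.1 and 69.2 (-0.28). DHX33 was at 1642 and 1891 (0.20), and DDX21, a nucleolar helicase, was at 2354 and 2233 (-0.08) with 2 of its 3 probe sets higher. The mitochondrial helicases DDX28 and DHX30 had log2 ratios of -0.09 and 0.05. A dimmer probe set of DHX30 was at 291 in control discs and 172 in Bx discs (-0.76), while its other 2 were slightly higher.

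All 13 HNRNP genes lay within 0.29 of 0 on the log2 scale. Heterogeneous nuclear ribonucleoproteins coat new transcripts and shape splicing, export and stability, and 12 of these 13 were in the brightest group. Their median log2 ratio was 0.02, but -0.10 when probe sets were averaged and -0.03 after median centring, so no direction is given. HNRNPA2B1, a binder of RNA transport signals, was at 10572 and 8666, the lowest ratio of the family at -0.29, and 3 of its 4 probe sets were lower in Bx discs. Of all genes in the brightest group 5.15% differed by as much. HNRNPK, a poly(C)-binding protein, was at 3959 and 3563 (-0.15), and HNRNPLL, a regulator of alternative splicing in lymphocytes of mammals, at 1555 and 1384 (-0.17). Of the 5 measured HNRNPLL probe sets 2 were higher, and the mean was -0.06 ± 0.15 (SD). The next brightest was at 1465 and 1455 (-0.01). On the other side, HNRNPKL, annotated as an HNRNPK-like gene, was at 2301 and 2710 (0.24), with 2 of its 4 probe sets higher. Probe sets of HNRNPK and HNRNPKL may share sequence, so their split is uncertain. HNRNPDL was at 4019 and 4543 (0.18), and its other probe set at 3040 and 2971 (-0.03). HNRNPAB had nearly tied probe sets of opposite direction: the one used was at 2823 and 3052 (0.11), another at 3269 and 2565 (-0.35). The brightest probe set of HNRNPA1 was at 9226 and 9363 (0.02), while its other 4 were lower in Bx discs, down to -0.52. HNRNPD was at 7369 and 7121 (-0.05), and its dimmer probe set at 831 and 573 (-0.54).

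SR proteins, which mark exons and recruit the spliceosome, were bright and close between the pools, apart from SRSF4. Over 11 SRSF genes the median log2 ratio was 0.05, and -0.0082 after median centring. SRSF1 was at 11890 and 13175 (0.15) and SRSF2 at 8944 and 9013 (0.01). SRSF3, a small SR protein that also acts in mRNA export, was at 6697 and 7169 (0.10). Its 4 measured probe sets were all higher in Bx discs, with a mean of 0.38 ± 0.47 (SD). SRSF5 was at 1715 and 2026 (0.24), and its 2 measured probe sets were both higher, with a mean of 0.19 ± 0.06 (SD). A further SRSF5 probe set was at 48.4 in the control and under the floor in Bx discs (19.9), at least 1.33-fold lower. SRSF6, at 10177 and 9051, had the lowest ratio of the family (-0.17), with both probe sets lower. SRSF5A was at 7327 and 6871 (-0.09) and SRSF7 at 3069 and 3047 (-0.01). SRSF5A and SRSF7L are named as relatives of SRSF5 and SRSF7, and probe sets of each pair may share sequence. SRSF4 was at 52.5 in control discs and 90.2 in Bx discs, 1.72-fold higher (log2 ratio 0.78). That control signal was just above the floor of 42.6, and the only other SRSF4 probe set was under the floor on both arrays, at 41.1 and 30.6. In the dimmest group 11.1% of genes differed by as much as SRSF4.

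The SF3 family holds the subunits of the SF3A and SF3B complexes, with which the U2 snRNP grips the intron branch point. Of its 7 genes 6 had the lower signal in Bx discs, with a median log2 ratio of -0.11, beside a median of -0.0083 for all genes in the brightest group, where 5 of the 7 lay. The sign of that median held under the other scalings (-0.17 to -0.10), but not when probe sets were averaged (0.0016) or those that can match several transcripts, with IDs ending in _x_at or _s_at, were left out (0.04). SF3B1, the largest subunit, was at 8307 and 7551 (-0.14). All 3 of its probe sets were lower, with a mean of -0.24 ± 0.19 (SD). SF3B3 was at 3671 and 3318 (-0.15), with 2 of 4 measured probe sets higher. A further SF3B3 probe set was at 69.4 in the control and under the floor in Bx discs (11.7), at least 1.91-fold lower. SF3B4 was at 1191 and 861, 1.38-fold lower (-0.47), on a probe set of the _x_at kind, and its other probe set was at 196 and 208 (0.08). SF3A1 was at 9056 and 8900 (-0.03), SF3B6 at 4607 and 4544 (-0.02) and SF3B5 at 148 and 152 (0.04).

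The SNRP genes encode the Sm ring and the proteins special to the U1 and U2 snRNPs, and they were mixed. Over the 10 genes the median log2 ratio was 0.0018, with 5 higher and 5 lower. SNRPF, an Sm ring subunit, was at 61.6 in control discs and 93.1 in Bx discs, 1.51-fold higher (0.60) on 1 dim probe set. It was under 1.5-fold after median centring, quantile normalization or a pseudocount of 16. Other ring subunits differed little, with SNRPD1 at 3205 and 3174 (-0.01), SNRPD3 at 4542 and 4915 (0.11, both probe sets higher) and SNRPE at 4109 and 4568 (0.15, the dimmer probe set lower). SNRPD2 was dim, at 197 and 215 (0.13).

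SNRPN, the tissue-restricted variant of the SNRPB ring subunit in mammals, had the widest gap of the family genes in the brightest group. It was at 2633 in control discs and 1887 in Bx discs, 1.40-fold lower (-0.48) on 1 probe set, where 1.14% of all genes in that group differed by as much. The U2 protein SNRPB2 was at 187 and 133 (-0.49, 1 probe set). Its partner on U2, SNRPA1, was at 2173 and 1887 (-0.20), while a dim further probe set of SNRPA1 was at 44.9 and 155 (1.79). Another SNRPA1 probe set was under the floor in the control (33.9) and at 83.4 in Bx discs, at least 1.96-fold higher. SNRPC, a U1 protein, was at 7248 and 7339 (0.02).

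Of the proteins that bind stored mRNA, the poly(A)-binding protein gene PABPC1L was the 1 gene of these families at least 1.5-fold lower in Bx discs. PABPC1L is the embryonic poly(A)-binding protein (ePAB) of frog and mouse oocytes, which acts before PABPC1 takes over in the embryo. Its signal was 193 in control discs and 109 in Bx discs, 1.77-fold lower (log2 ratio -0.82). Its other 2 probe sets were under the floor on both arrays, with signals no higher than 27.4, so the value had no second reading. The probe set is of the _s_at kind, and 9.21% of genes in the dimmest group differed by as much. PABPC1, the general cytoplasmic poly(A)-binding protein, was at 33034 and 33541 (0.02). PABPC4 was at 1870 and 1713 (-0.13), with a mean of -0.11 ± 0.37 (SD, 3 probe sets).

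CPEB1, the factor that holds and then lengthens short poly(A) tails in frog and mouse oocytes, was at 542 in control discs and 643 in Bx discs (0.25). Its further probe sets were at 87.3 and 188 (1.11) and at 65.8 and 42.9 (-0.62), so the 3 gave a mean of 0.25 ± 0.86 (SD). The relatives of CPEB1 were dim. CPEB4, which takes over from CPEB1 late in frog meiosis, was at 88.1 and 101 (0.20), and a second probe set at 77.2 and 109 (0.50). Their mean was 0.35 ± 0.22 (SD). CPEB2 was at 73.6 and 56.6 (-0.38) and CPEB3 at 53.4 and 48.0 (-0.15). A further CPEB3 probe set was under the floor in the control (11.0) and at 81.1 in Bx discs, at least 1.90-fold higher, while another was at 49.4 in the control and under the floor in Bx discs (31.5), at least 1.36-fold lower. No direction can be read for CPEB3.

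PUM2, a Pumilio repressor that binds the 3' ends of target mRNAs, was at 1036 in control discs and 898 in Bx discs (-0.21, 1 probe set). PUM3, a nucleolar relative with a role in ribosome assembly, was at 2219 and 2138 (-0.05, 1 probe set). CELF1 promotes the shortening of poly(A) tails in frog eggs and was at 1411 and 1367 (-0.05), with 2 of its 3 probe sets lower and a spread of only 0.04 (SD) between them. CELF2 was at 951 and 950 (-0.0020). The CELF genes best known from the nervous system were dim: CELF4 was at 56.3 and 48.8 (-0.21), CELF5 at 92.9 and 69.4 (-0.42) and CELF6 at 57.3 and 57.2 (-0.0031). All 5 measured CELF genes had the lower signal in Bx discs, the last by next to nothing.

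**Figure D3:**
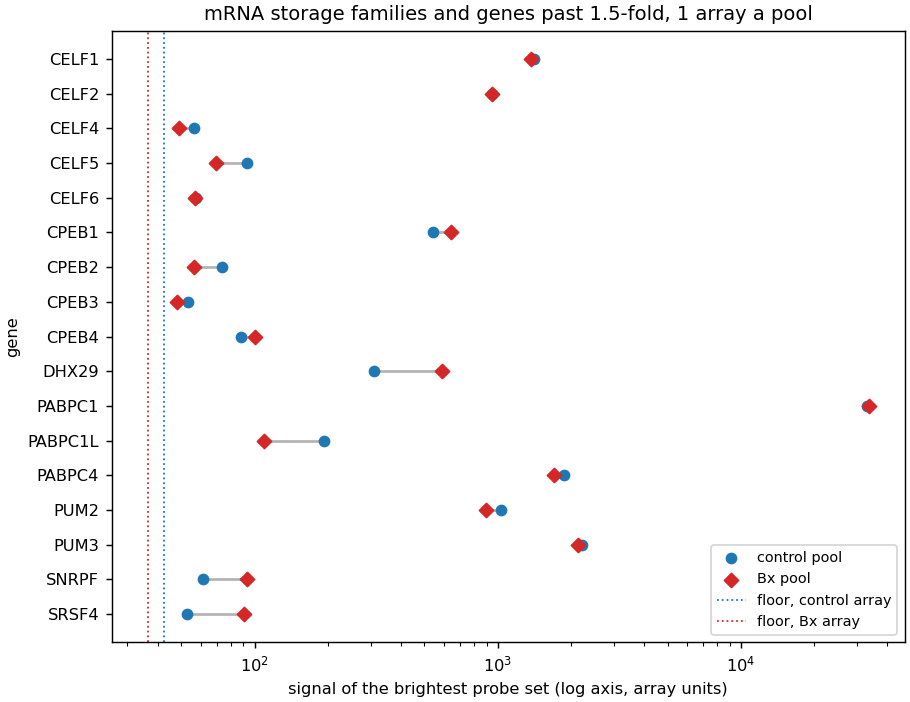
Signal of the brightest probe set in control discs (circles) and the Bx pool (diamonds) on a log axis in array units, for the measured CPEB, PABP, PUM and CELF genes and the other genes past 1.5-fold. Dotted lines are the floors of 42.6 and 36.4. PABPC1 and CELF2 nearly coincide, while PABPC1L, DHX29, SRSF4 and SNRPF have visible gaps, and SRSF4 and SNRPF lie close to the floors.

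Of the 3 genes that were not measured, 2 were above the floor in control discs only, beside 8.76% of all named genes above it on 1 array only. DDX43, a helicase of the testis in mammals, was at 52.3 in the control and under the floor in Bx discs (14.5), at least 1.44-fold lower. CELF3 was at 50.1 and under the floor (3.69), at least 1.38-fold lower. Their control signals were close to the floor. DDX60, an antiviral helicase, was under the floor on both arrays on the probe set used. A further DDX60 probe set was at 45.9 in the control and under the floor in Bx discs (6.28), at least 1.26-fold lower.

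Several genes had more than 1 measured probe set, which gave a second reading of the same ratio. In 19 of 61 such genes (31.1%) all measured probe sets went the same way, 9 higher and 10 lower in Bx discs, against 45.5% of all genes with at least 2. The brightest and next probe sets went the same way in 32 of 61 pairs (52.5%), against 57.9% of pairs over all genes. Across the 61 genes the correlation between those ratios was -0.07 (Pearson) and -0.02 (Spearman), as a description over genes that share the same 2 arrays. Over all 4870 such genes the rho was 0.20. The pooled SD between probe sets of 1 gene was 0.33 on the log2 scale, larger than the SD of 0.25 between the 92 genes. Most ratios in these families were smaller than that pooled SD. The pooled SD includes probe sets dimmer than those used for the ratios, and the 2 SDs were not matched for brightness.

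Probe sets that all went 1 way with a mean log2 ratio of at least 0.3 in size were found in 4 of the 61 genes (6.56%), against 14.8% of all such genes. These were CPEB4, DHX36, SRSF3 and DDX42, and all 4 were higher in Bx discs. For DDX42 the mean was 0.68 ± 0.66 (SD, 2 probe sets). Further probe sets, those other than a gene's brightest, were compared with the floor in place of any signal under it. They were at least 2-fold higher in Bx discs in 4 of 122 cases, beside 1.85% over all genes. At least 2-fold lower were 0 cases, beside 1.76%. In DHX36, SRSF3 and DDX42 the mean was carried by a dimmer probe set, and the brightest had log2 ratios of 0.05, 0.10 and 0.21.

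**Figure D4:**
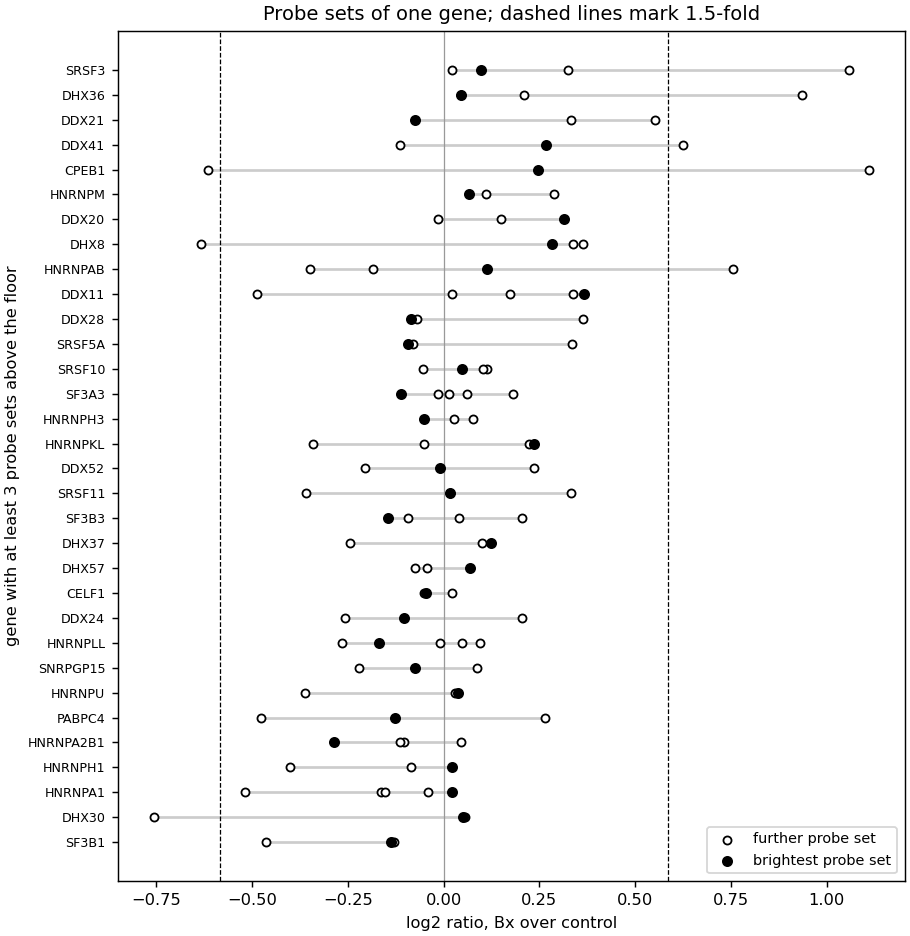
Log2 ratio of Bx over control for every measured probe set of the genes with at least 3, 1 gene a row, with the brightest probe set filled and the others open. Dashed lines mark 1.5-fold. Most rows cross 0. In DHX36 and HNRNPA1 the brightest probe set lies near 0 and open ones reach 0.94 and -0.52, while in DDX11 and DDX20 the brightest is the highest.

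Genes of the same pathways outside these families differed about as little. Of 59 measured genes of the spliceosome and splicing control, 0 were at least 1.5-fold higher and 1 was lower, beside 4.11% and 3.63% of all measured genes, with a median log2 ratio of 0.02. The one was PCBP2, a poly(C)-binding protein, at 159 in control discs and 86.7 in Bx discs (-0.88), with both probe sets lower (mean -0.67 ± 0.30, SD). RBFOX2, a splicing regulator, was at 1641 and 1149 (-0.51), with a mean of -0.28 ± 0.33 (SD, 2 probe sets, both lower). AQR, a helicase of the active spliceosome, was at 763 and 568 (-0.43). Of its 3 probe sets 1 was higher, and the mean was -0.20 ± 0.22 (SD). ESRP1, an epithelial splicing regulator, was at 65.0 and 95.7 (0.56), PRPF4, a protein of the U4/U6 snRNP, at 58.8 and 81.2 (0.46), and LSM4, of the Lsm ring, at 915 and 1196 (0.39).

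Among 38 genes of mRNA storage and translation control, 2 were at least 1.5-fold higher and 1 was lower, with a median log2 ratio of 0.03. These 3 are close in proportion to the 7.74% of all measured genes past 1.5-fold either way, a share not matched for brightness. LARP4B, which binds poly(A)-binding protein and stabilises mRNA, was at 526 and 961 (0.87), and its 3 probe sets were all higher (mean 0.96 ± 0.22, SD). PATL1, a decapping factor of P-bodies, was at 110 and 175 (0.67, 1 probe set). PAIP1, which joins poly(A)-binding protein to the initiation machinery, was at 2444 in control discs and 1560 in Bx discs, 1.57-fold lower (-0.65, 1 probe set). LARP4B and PAIP1 lay in the next-to-brightest group, where 1.49% of all genes were past 1.5-fold. PATL1 lay in the dimmest group, where 22.9% were. EIF4E2, a cap-binding repressor, was at 1045 and 1429 (0.45) and EIF4E3 at 162 and 215 (0.41). MSI2 was at 1376 and 1168 (-0.24) with 4 of 6 probe sets higher, and TIA1, a stress granule protein, at 2681 and 2461 (-0.12). The oocyte storage factor ZAR1L (212 and 215) and BTG4 (924 and 1027), an oocyte marker, had log2 ratios of 0.02 and 0.15. The cold-shock packaging protein YBX1 (14041 and 14205) had a log2 ratio of 0.02.

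Of 44 genes of deadenylation and decay, 1 was at least 1.5-fold higher and 0 were lower, beside 4.11% and 3.63% of all measured genes, with a median of 0.03. SMG6, the endonuclease of nonsense-mediated decay, was at 244 and 446 (0.87), with all 3 probe sets higher (mean 0.51 ± 0.41, SD). SMG1, the kinase of that pathway, was at 116 and 172 (0.56), and CNOT6L, a deadenylase, at 360 and 489 (0.44, both probe sets higher). CNOT7, another deadenylase, was at 3974 and 3140 (-0.34), EXOSC6, of the exosome, at 250 and 199 (-0.33), and TOB1, which recruits deadenylases, at 776 and 628 (-0.30, both probe sets lower).

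**Figure D5:**
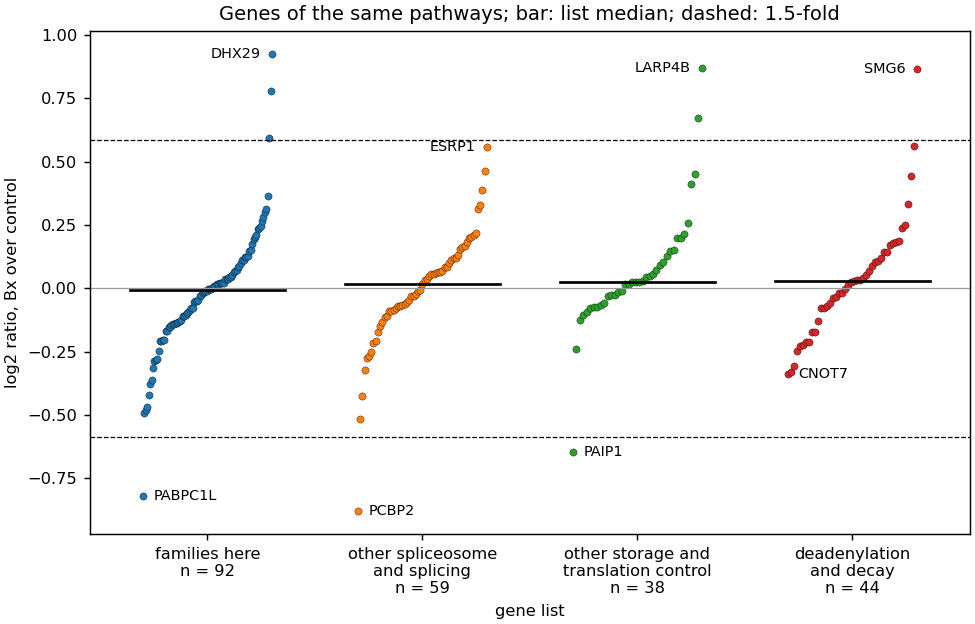
Log2 ratio of Bx over control for each measured gene of the families (n = 92) and of 3 lists of related genes outside them (n = 59, 38 and 44), sorted within each list, with list medians as bars and 1.5-fold as dashed lines. The medians lie between -0.0072 and 0.03, and the outermost gene on each side is named.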

How the data were processed

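RNA from 1 pool a group (100 ng input) was hybridised to 1-colour Affymetrix arrays. The table holds linear signal intensity per probe set, deposited by the authors and made with MAS5, per the submitters' processing notes. Its version and scaling target are not stated in the labels. After trimming 2% at each end, both arrays had a mean of 500.1. Intensities were used as scaled and taken to log2 with no pseudocount. Names are those of the platform annotation at GEO and may be out of date. All 95 gene IDs matched a RefSeq gene of assembly GRCg7b under the same symbol. One probe set with several symbols was left out. Probe sets with A1 in their IDs may target the opposite strand, and they were kept. They include the DDX60 probe set used, the DDX11 probe set that was lower in Bx discs and a lower probe set of HNRNPKL. The floor came from 746 non-chicken probe sets, and 96 control probe sets were not used. Arrays were compared as ratios, with no test, and their number limits the precision. The ratio step was tested on simulated data with known shifts, and the count steps were not. Members, gene lists and thresholds were chosen with earlier results of these data known. Genes named were those past 1.5-fold, the 3 highest and lowest ratios of each family and pathway list, all CPEB, PABP, PUM and CELF genes, genes above the floor on 1 array, and genes whose probe sets agreed on a mean log2 ratio of at least 0.3. Of the helicases in the role lists only some were named, and values for others, such as DDX46 and DDX47, are not given. Further genes, such as DHX30, HNRNPA1, HNRNPD, SRSF2, SNRPC, SNRPD1, SNRPD3, YBX1, ZAR1L and BTG4, were picked with values in view. Alternatives were 3 other scalings, other floors, a pseudocount of 16, averaged probe sets, fewer probe sets, and thresholds of 0.32 on the log2 scale and of 2-fold. Python 3.11.15, pandas 2.3.3 and statsmodels 0.14.6 (lowess fraction 0.3) were used.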

Additional observations from a re-analysis of the deposited data

Results flagged for a closer look

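Probe sets other than a gene's brightest were not used for the gene's value. There were 122 such probe sets above the floor on at least 1 array. With the floor in place of any signal under it, 4 of them (3.28%) were at least 2-fold higher in Bx discs. Over all genes the share was 1.85%. For SNRPA1 one such probe set was at 155 in Bx discs and 44.9 in the control. DDX42 had one at 117 and 53.1, CPEB1 one at 188 and 87.3, and SRSF3 one at 107 and 51.5, in the same order. None of the 122 was at least 2-fold lower by the same rule, beside 1.76% over all genes. The rule left out probe sets with a wider gap in signal on both sides. A CPEB3 probe set was at 11.0 in the control and 81.1 in Bx discs, and an SF3B3 probe set at 69.4 and 11.7. The control signals of the 4 that were counted as higher lay between 44.9 and 87.3, above a floor of 42.6. The brightest probe sets of these 4 genes had log2 ratios between -0.20 and 0.25.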

How the results depend on the processing

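No paired analysis was possible because each group had 1 array. At least 1.5-fold higher were 3 genes with the signals as deposited and 0 with the floor at the 75th percentile of chicken probe sets, where 73 of the 95 genes were measured. With a 2-fold threshold it was also 0. At least 1.5-fold lower was 1 gene as deposited, 3 with no floor (CELF3 and DDX43 were added), 0 with the stricter floor, 7 at a log2 threshold of 0.32 and 0 at 2-fold. At 1.5-fold, PABPC1L left the lower side without _x_at and _s_at probe sets, where DHX30 took its place, and with the stricter floor. Those settings measure fewer genes (80 and 73). SNRPF left the higher side after median centring, quantile normalization, with a pseudocount of 16 and without _x_at and _s_at probe sets. With averaged probe sets DHX29 fell under 1.5-fold (0.26), while DDX42 (0.68) and SNRPA1 (0.79) passed it. Median centring moved the median of all genes from 0.01 to -0.04 and that of the 92 genes to -0.06. The medians of all families moved by less than the SD between their genes under every setting run. Of 400 values of named genes under the alternatives, 394 moved by less than the pooled SD between probe sets of 0.33, and 6 by more. Part of the 400 could not move. The floors did not alter a gene's ratio, and averaging did not alter that of a gene with 1 measured probe set. A change of sign could also stay under 0.33, as for HNRNPKL, from 0.24 to -0.05 without _x_at and _s_at probe sets. The cause of the changes between settings was not tested beyond the number of genes measured. Dim genes limit the reading: the SD of the log2 ratio over all genes was 0.49 in the dimmest group and 0.15 in the brightest.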
